A study of Saccharomyces cerevisiae with 2 samples.

Results

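The genes described here are 35 genes of *S. cerevisiae* that encode the enzymes of the tricarboxylic acid (TCA) cycle, the glyoxylate shunt and the committed steps of gluconeogenesis, together with the carriers and acetyl transfer enzymes that feed them. They were chosen by name, and all 35 were found under their own symbols among the 5699 genes listed in at least 1 of the deposited tables. Transcripts were measured by RNA-Seq in ZK2, labelled a bioethanol strain, and in BYZ1, a diploid laboratory strain (MATa/MATalpha) derived from S288c. BYZ1 is homozygous for his3delta1, leu2delta0 and ura3delta0 and heterozygous for lys2delta0 and met15delta0. The labels give no genotype for ZK2, and the study's methods do not describe it. RNA was taken in early stationary phase from cultures of 25 mL YPD started at an OD600 of 0.05. By the labels, the YPD of ZK2 held yeast extract at 10 g/L and both peptone and glucose at 20 g/L, and that of BYZ1 held 1 g/L and 2 g/L, while the study's methods give the richer recipe for BYZ1. By the labels, then, strain and medium cannot be told apart.

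Each strain had 1 library, with a median of 204 uniquely mapped reads per listed gene in ZK2 and 230 in BYZ1. No test between strains could be made, so every comparison is between these libraries. Levels are in RPKM (reads scaled to gene length and to the library's total of mapped gene reads), which allows different genes of a library to be compared. Intervals are at 95% and cover counting error only, not differences between cultures, and copies made by PCR cannot be told from separate molecules. The study's methods describe the RNA of a sample as taken from several individual cultures, but they do not name ZK2. With 1 library per strain, such cultures cannot be told apart. A gene was called higher or lower in ZK2 when log2 of the ratio of (RPKM + 1), ZK2 over BYZ1, was at least 1 in size, and 5080 genes entered this comparison because either library had them at an RPKM of 10 or above. All 35 genes were among them. The strain label of BYZ1 was checked with its deleted genes. *URA3* had 123 reads in ZK2 and 0 in BYZ1, and *LEU2* had 360 in ZK2 and 1 in BYZ1. *HIS3* had 159 reads in ZK2 and 156 in BYZ1, which covered 98.94% of the gene in ZK2 and 67.4% in BYZ1. For the heterozygous deletions, *LYS2* had 993 reads in ZK2 and 451 in BYZ1, whereas *MET17* (*MET15*) had 43 in ZK2 and 145 in BYZ1, so *MET17* was not lower in BYZ1.

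Yeast grown on glucose ferments it to ethanol and represses respiration. When glucose runs out, the ethanol and acetate are taken back, activated to acetyl-CoA and burned in the mitochondrial TCA cycle. The glyoxylate shunt bypasses the decarboxylating steps of the cycle, so that acetyl units can be turned into 4-carbon acids, and gluconeogenesis turns these into sugar phosphates. Several steps have isozymes in the mitochondrion, the cytosol and the peroxisome. Bulk RNA cannot separate a change in every cell from a change in the share of cells that express a gene. Protein was not measured, so shares of transcripts are not shares of enzyme.

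These genes were among the most abundant transcripts of both libraries. They took 6.72% of all gene reads in ZK2 and 8.43% in BYZ1. Their median RPKM was 792 in ZK2 and 1229 in BYZ1, beside a median over all listed genes of 33.9 in ZK2 and 37.2 in BYZ1. Of the 35, 13 were among the 100 highest genes in ZK2 and 16 in BYZ1. The lowest value in ZK2 was that of *IDP3*, at 31.0, the only value of the set under the median gene of its own library, and the lowest in BYZ1 was that of *PYC2*, at 162.

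**Figure D1:**
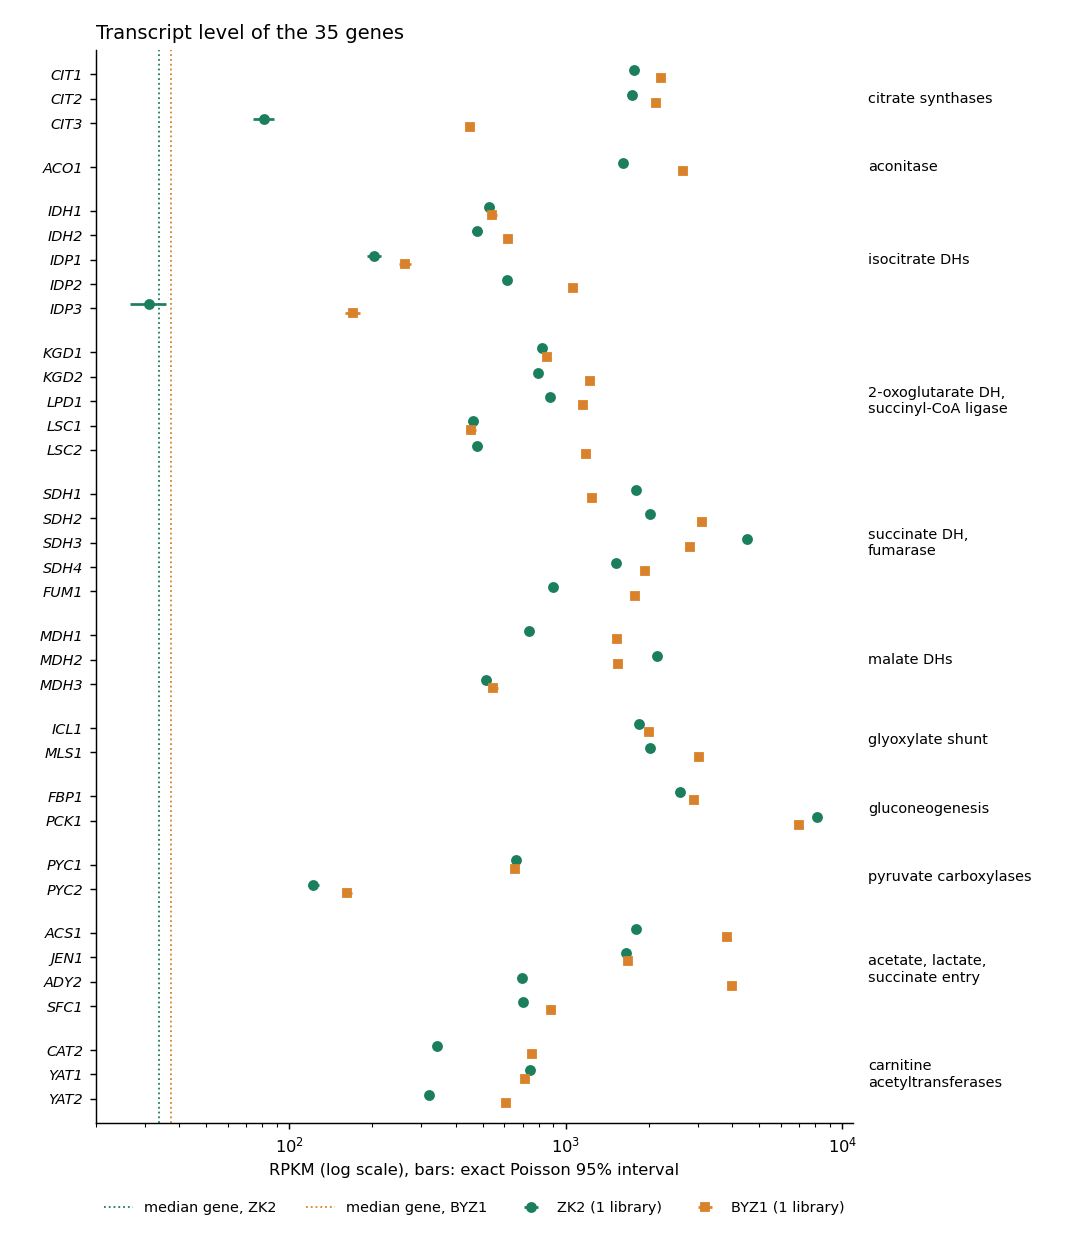
RPKM (log axis) of the 35 genes in ZK2 (green circles) and BYZ1 (orange squares), grouped by role, with exact Poisson 95% intervals that are mostly smaller than the symbols. Dotted lines mark the median listed gene of each library (33.9 in ZK2, 37.2 in BYZ1), and *PCK1* is the rightmost gene in both strains.

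No member was called higher in ZK2 and 7 were called lower: *CIT3*, *IDP3*, *LSC2*, *MDH1*, *ACS1*, *ADY2* and *CAT2*. That is 20% of the set, beside 10.3% of all genes compared that were called lower and 7.91% that were called higher. The median log2 ratio was -0.37 over the 35 genes and -0.17 over all 5080. This shift of all genes depends on the scale between the libraries. With TMM factors, the median of all genes was 0.00, and 4 members (11.4%) were called lower beside 6.69% of all genes. *CIT3*, *IDP3*, *LSC2* and *ADY2* were lower on either scale, whereas *MDH1*, *ACS1* and *CAT2* had log2 ratios of -0.87, -0.92 and -0.95 with TMM factors. The sign of the ratio also changed with TMM factors for *IDH1*, *KGD1*, *MDH3*, *ICL1*, *FBP1* and *JEN1*, so no direction is given for these 6. Of all genes called, 43.4% were higher in ZK2 on read totals and 61.3% with TMM factors. Relative to the median of all genes, 13 of the 35 were above it and 22 below it.

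**Figure D2:**
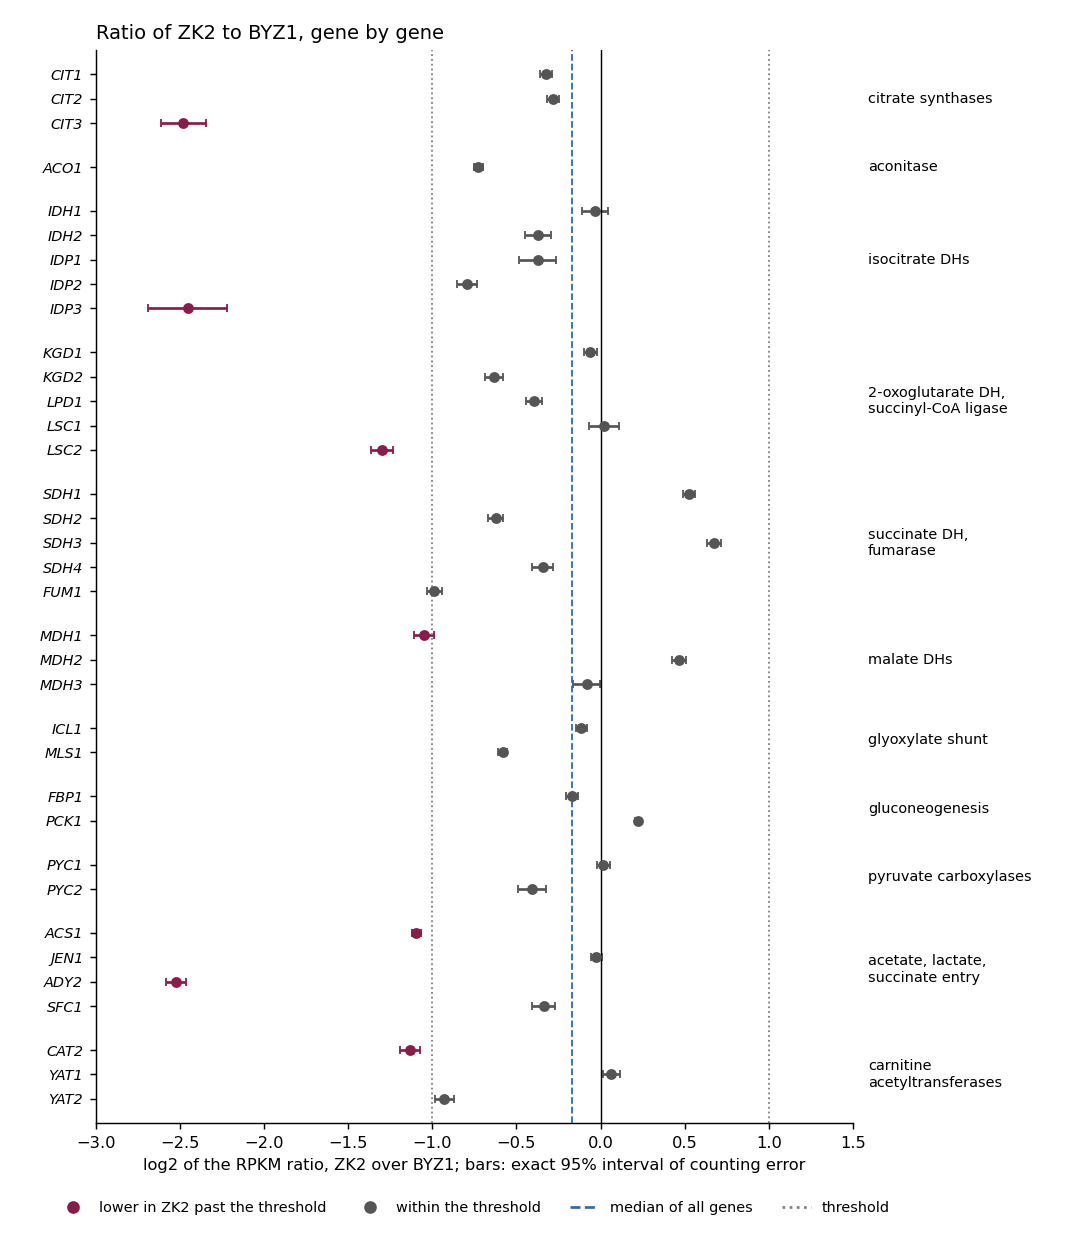
log2 of the RPKM ratio, ZK2 over BYZ1, for each of the 35 genes, with exact 95% intervals of counting error. Dark red points are the 7 genes called lower in ZK2, dotted lines mark the threshold, and the dashed line is the median of all genes compared (-0.17). *ADY2*, *CIT3* and *IDP3* lie furthest to the left.

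Citrate synthase joins acetyl-CoA to oxaloacetate, and its transcripts came mostly from *CIT1* (mitochondrial) and *CIT2* (peroxisomal) in both libraries. *CIT1* had 11570 reads and an RPKM of 1758 in ZK2, against 14856 reads and 2201 in BYZ1, a ratio of 0.799 (0.779 to 0.818). *CIT2* had 1743 in ZK2 and 2117 in BYZ1, a ratio of 0.823 (0.803 to 0.844). The major isozymes thus kept nearly the same balance, and the level ratio of *CIT2* to *CIT1* was 0.991 in ZK2 and 0.962 in BYZ1. The third gene stood apart. *CIT3*, a mitochondrial enzyme that also accepts propionyl-CoA (YPR001W, chromosome 16 from 556374 to 557834, plus strand, sacCer2), had 540 reads in ZK2 and 3090 in BYZ1. Its RPKM was 80.9 (74.2 to 88.0) in ZK2 and 451 (435 to 467) in BYZ1, a ratio of 0.179 (0.163 to 0.196). *CIT3* held 2.26% of the summed citrate synthase RPKM in ZK2 and 9.46% in BYZ1.

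Peroxisomal isozymes carry a signal at the end of the coding sequence. Proteins that end in serine, lysine and leucine, or a close variant, are taken into peroxisomes. The last 24 bases of the coding sequences are given from the S288c reference (R64), with the last 3 sense codons in capitals and the stop codon after them, to show which members carry this signal. *CIT2*, *MDH3* and *MLS1* end in codons for serine, lysine and leucine, *IDP3* in cysteine, lysine and leucine, and *CAT2* in alanine, lysine and leucine. *CIT1*, *MDH1* and *MDH2* end in other codons. Mitochondrial *CIT3* ends in codons for asparagine, lysine and leucine, which differ from the signal in the first residue only, so these letters alone do not sort the isozymes by compartment. These letters are those of S288c, and the ZK2 sequence was not analysed here.
CIT2 (chr3:120946-120969, minus strand): aaaaacattgaaAGCAAACTAtag
MDH3 (chr4:315357-315380, minus strand): atcctagactctTCCAAGCTAtga
IDP3 (chr14:616060-616083, plus strand): aagaaaggtatgTGCAAACTAtaa
MLS1 (chr14:407999-408022, plus strand): cccactgatttgAGCAAATTGtga
CAT2 (chr13:194777-194800, plus strand): aataaacgaaaaGCAAAGTTAtga
CIT3 (chr16:557814-557837, plus strand): gcaagcaatgttAACAAGTTGtaa
CIT1 (chr14:629622-629645, minus strand): aagaaaatcgaaAGTAAGAACtaa
MDH1 (chr11:280104-280127, plus strand): gtcaactttgttGCTAGTAAAtag
MDH2 (chr15:81787-81810, minus strand): gcatcgagatctGCATCATCTtaa

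The genes with this signal did not share a ratio. *MDH3* was at 0.945 and *CIT2* at 0.823, whereas *MLS1* was at 0.668, *CAT2* at 0.456 and *IDP3* at 0.183.

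Aconitase, which isomerizes citrate, is encoded for the cycle by *ACO1*. It had 17204 reads in ZK2 and 29174 in BYZ1. The RPKM was 1610.5 (1587 to 1635) in ZK2 and 2663 (2633 to 2694) in BYZ1, a ratio of 0.605 (0.593 to 0.616). This gene was within the threshold but below the median ratio of all genes on either scale.

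Isocitrate is oxidized by an NAD enzyme of the cycle and by 3 NADP enzymes in separate compartments. *IDH1* and *IDH2* encode the regulatory and catalytic subunits of the NAD enzyme. *IDH1* had an RPKM of 529 in ZK2 and 542 in BYZ1, a ratio of 0.977 (0.926 to 1.03), and *IDH2* had 479 in ZK2 and 619 in BYZ1, a ratio of 0.774 (0.734 to 0.816). In the NADP family, cytosolic *IDP2* was the most abundant in both strains and peroxisomal *IDP3* the least. *IDP2* was at 614 in ZK2 and 1065 in BYZ1, a ratio of 0.576 (0.553 to 0.601). Mitochondrial *IDP1* was at 203 in ZK2 and 263 in BYZ1, a ratio of 0.771 (0.715 to 0.832). *IDP3*, which supplies NADPH for the oxidation of unsaturated fatty acids (YNL009W), lies on chromosome 14 from 614823 to 616085 (plus strand, sacCer2). It had 179 reads in ZK2, the fewest of any member, and 1003 in BYZ1. Its RPKM was 31.0 (26.6 to 35.9) in ZK2 and 169 (159 to 180) in BYZ1, and reads covered 93.4% of its length in ZK2 and 99.4% in BYZ1. The ratio was 0.183 (0.155 to 0.215), and relative to *IDP1* the level of *IDP3* was 0.153 in ZK2 and 0.644 in BYZ1.

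2-oxoglutarate dehydrogenase is built from *KGD1*, the decarboxylase, *KGD2*, the succinyltransferase, and *LPD1*, a lipoamide dehydrogenase shared with pyruvate dehydrogenase. The subunits had similar levels in ZK2, where *KGD1* was at 824, *KGD2* at 792 and *LPD1* at 876. In BYZ1 *KGD1* was the lowest, at 859, below *KGD2* at 1229 and *LPD1* at 1154. The ratios were 0.959 (0.935 to 0.984) for *KGD1*, 0.645 (0.622 to 0.668) for *KGD2* and 0.760 (0.735 to 0.786) for *LPD1*.

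The subunits of succinyl-CoA ligase, which makes ATP from succinyl-CoA, differed in their ratio. *LSC1*, the alpha subunit, had 2087 reads and an RPKM of 461 in ZK2, against 2110 reads and 455 in BYZ1 (ratio 1.01, 0.954 to 1.08). *LSC2*, the beta subunit (YGR244C, chromosome 7 from 978041 to 979324, minus strand, sacCer2), had 2813 reads and 479 in ZK2, against 7096 reads and 1179 in BYZ1 (ratio 0.406, 0.389 to 0.425). The subunits were therefore at almost equal levels in ZK2, and *LSC2* was above *LSC1* in BYZ1. The level ratio of *LSC2* to *LSC1* was 1.04 in ZK2 and 2.59 in BYZ1, a change of 0.401 (0.372 to 0.432). Such a ratio of ratios does not depend on the scale between libraries or on gene length. It would still shift if ZK2 reads that differ from the reference were lost unevenly between the genes, which was not tested.

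Succinate dehydrogenase, which is also complex II of the respiratory chain, showed a split among its 4 subunits. *SDH1*, the flavoprotein subunit, had 15820 reads in ZK2 and 11253 in BYZ1, and *SDH3*, a membrane anchor, had 12292 in ZK2 and 7894 in BYZ1. *SDH2*, the iron-sulfur subunit, had 7389 in ZK2 and 11679 in BYZ1, and *SDH4*, the other anchor, had 3790 in ZK2 and 4932 in BYZ1. The RPKM of *SDH1* was 1799.8 in ZK2 and 1248.5 in BYZ1 (ratio 1.44, 1.41 to 1.48). *SDH3* was at 4504 in ZK2 and 2821 in BYZ1 (1.597, 1.55 to 1.64), the highest ratio of the 35 genes. *SDH2* was at 2018 in ZK2 and 3111 in BYZ1 (0.649, 0.630 to 0.668), and *SDH4* at 1519 in ZK2 and 1927 in BYZ1 (0.788, 0.755 to 0.822). The order of levels differed as a result, with *SDH3* above *SDH2* in ZK2 and *SDH2* above *SDH3* in BYZ1. Relative to *SDH1*, the change was 0.450 (0.433 to 0.467) for *SDH2*, 0.547 (0.521 to 0.574) for *SDH4* and 1.11 (1.07 to 1.15) for *SDH3*. None of the 4 passed the threshold. *SDH1* and *SDH3* lie close together on chromosome 11, from 169212 to 171134 (minus strand) and from 179672 to 180268 (plus strand), and *SDH2* and *SDH4* are on chromosomes 12 and 4. *SDH4* is the only member between *HMO1* and *UME6*, genes that the study used to check a stretch of chromosome 4 held in extra copies by BYZ1. The 27 genes compared between these ends had a median log2 ratio of -0.92, and 12 of the 27 were called lower. The 635 compared elsewhere on the chromosome had a median of -0.23, and 64 of them were called lower. The study names Ty elements as the flanks of the stretch in extra copies. By its systematic name (YDR178W), *SDH4* comes before the first Ty element named, although it lies between *HMO1* and *UME6*. Whether *SDH4* lies within the stretch was not tested. The part of copy number in the value of *SDH4* (log2 ratio -0.34) was not tested.

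Fumarase is encoded by a single gene, *FUM1*, whose product is found in the mitochondrion and the cytosol. It was at 899 (877 to 922) in ZK2 and 1785 (1753 to 1817) in BYZ1, a ratio of 0.504 (0.488 to 0.520). Its log2 ratio of -0.99 was the nearest to the threshold among genes not called.

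Transcripts of malate dehydrogenase differed in their balance between isozymes of different compartments. Mitochondrial *MDH1* (YKL085W, chromosome 11 from 278767 to 279771, plus strand, sacCer2) had 3394 reads in ZK2 and 7212 in BYZ1. Its RPKM was 739 (714 to 764) in ZK2 and 1531 (1496 to 1567) in BYZ1, a ratio of 0.483 (0.463 to 0.503). Cytosolic *MDH2*, which serves gluconeogenesis, had 11095 reads in ZK2 and 8226 in BYZ1. Its RPKM was 2140.4 (2101 to 2181) in ZK2 and 1548 (1514 to 1581) in BYZ1, a ratio of 1.38 (1.34 to 1.42). Peroxisomal *MDH3* was at 516 in ZK2 and 546 in BYZ1. The level ratio of *MDH2* to *MDH1* was 2.90 in ZK2 and 1.01 in BYZ1, a change of 2.87 (2.73 to 3.01). *MDH1* held 21.8% of the summed malate dehydrogenase RPKM in ZK2 and 42.2% in BYZ1, *MDH2* held 63.0% in ZK2 and 42.7% in BYZ1, and *MDH3* held 15.2% in ZK2 and 15.1% in BYZ1. The sum itself was 3395 in ZK2 and 3625 in BYZ1. Coding sequences of these isozymes are 61.4% to 65.1% identical in R64. No window of 50 bases in any of them recurs in another R64 gene with up to 2 mismatches, so reads of S288c sequence could be placed. ZK2 reads that differ from S288c may have been lost, and this was not tested.

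**Figure D3:**
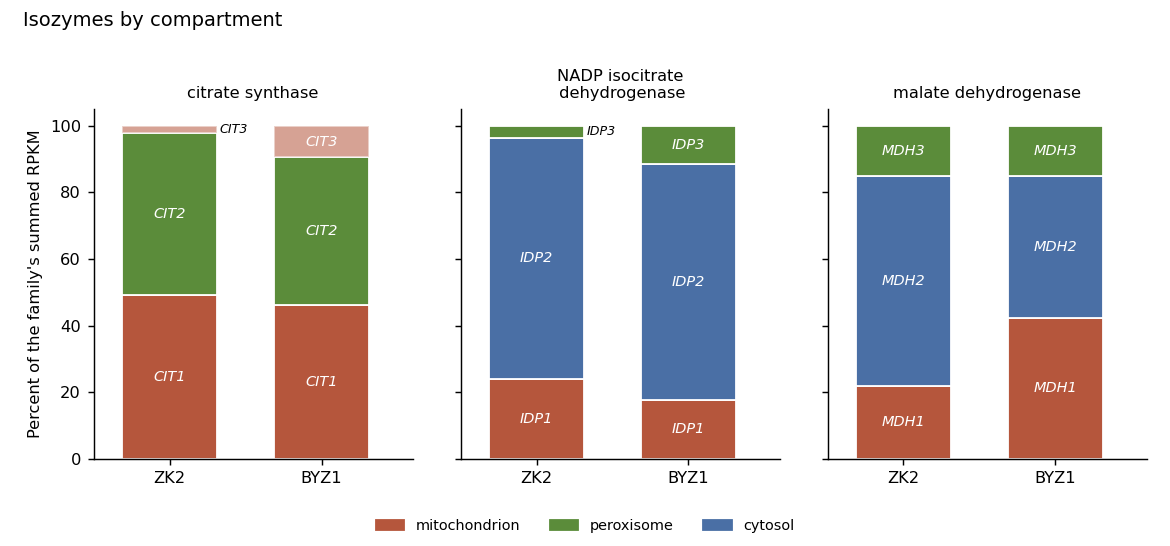
Percent of the summed RPKM of each isozyme family in ZK2 (left bar) and BYZ1 (right bar), colored by compartment, for citrate synthase, NADP isocitrate dehydrogenase and malate dehydrogenase. The share of the cytosolic isozyme in the summed malate dehydrogenase RPKM is 63.0% in ZK2 and 42.7% in BYZ1.

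The glyoxylate shunt consists of isocitrate lyase, *ICL1*, and malate synthase, *MLS1*. *ICL1* had 14082 reads and an RPKM of 1840.3 in ZK2, against 15639 reads and 1993 in BYZ1 (ratio 0.923, 0.902 to 0.945). *MLS1* had 15359 reads and 2018 in ZK2, against 23585 reads and 3022 in BYZ1 (0.668, 0.654 to 0.681). *MLS1* was the higher of the pair in both strains, with a level ratio to *ICL1* of 1.10 in ZK2 and 1.52 in BYZ1.

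Gluconeogenesis has 2 dedicated enzymes in the set. *PCK1* had the highest RPKM of the 35 genes in both libraries. *PCK1*, phosphoenolpyruvate carboxykinase (chromosome 11 from 630790 to 632439, plus strand, sacCer2), had 61325 reads in ZK2 and 53918 in BYZ1, which is 1.34% of all gene reads in ZK2 and 1.15% in BYZ1. Its RPKM was 8131 (8067 to 8196) in ZK2 and 6972 (6913 to 7031) in BYZ1, rank 8 in ZK2 and rank 16 in BYZ1. The ratio was 1.17 (1.15 to 1.18). *FBP1*, fructose-1,6-bisphosphatase, was at 2583 in ZK2 and 2904 in BYZ1, a ratio of 0.889 (0.868 to 0.911), which is the median ratio of all genes (0.887) to within counting error.

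Pyruvate carboxylase replenishes oxaloacetate and starts gluconeogenesis from pyruvate. *PYC1* was at 662 in ZK2 and 654 in BYZ1 (ratio 1.01, 0.984 to 1.04), and *PYC2* at 122 in ZK2 and 162 in BYZ1 (0.755, 0.712 to 0.8002). The coding sequences are 85.4% identical, and 20.7% of the 50-base windows of either recur in the other with up to 2 mismatches. They were the only members with such windows, so both levels are uncertain. Reads covered 94.2% of *PYC1* and 94.9% of *PYC2* in ZK2, and 95.02% of *PYC1* and 96.0% of *PYC2* in BYZ1.

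The set holds 4 genes for the entry of acetate, lactate and succinate, of which *ADY2* and, on read totals only, *ACS1* were called lower in ZK2. *ADY2*, an acetate permease gene (YCR010C, chromosome 3 from 132271 to 133122, minus strand, sacCer2), had 2704 reads in ZK2 and 15931 in BYZ1. Its RPKM was 694 (668 to 721) in ZK2 and 3989 (3928 to 4052) in BYZ1, a ratio of 0.174 (0.167 to 0.181), the lowest of the 35 genes. *ACS1*, the acetyl-CoA synthetase gene of non-fermentable growth (YAL054C, chromosome 1 from 42882 to 45023, minus strand, sacCer2), had 17541 reads in ZK2 and 38431 in BYZ1, or 1792 in ZK2 and 3828 in BYZ1 (0.468, 0.460 to 0.476). *JEN1*, the lactate and pyruvate permease gene, was at 1651 in ZK2 and 1680.4 in BYZ1 (0.982, 0.9597 to 1.01). *SFC1*, the mitochondrial carrier gene that exchanges succinate for fumarate, was at 699 in ZK2 and 883 in BYZ1 (0.792, 0.755 to 0.830).

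Carnitine acetyltransferases hand acetyl units from one compartment to another. *CAT2*, the main enzyme of mitochondria and peroxisomes (YML042W, chromosome 13 from 192788 to 194800, plus strand, sacCer2), had 3157 reads in ZK2 and 7096 in BYZ1. Its RPKM was 343 (331 to 355) in ZK2 and 752 (735 to 770) in BYZ1, a ratio of 0.456 (0.437 to 0.476). *YAT1*, on the mitochondrial surface, was at 745 in ZK2 and 712 in BYZ1 (1.05, 1.01 to 1.08), and *YAT2* at 321 in ZK2 and 610 in BYZ1 (0.525, 0.506 to 0.546). *YAT1* was thus the most abundant of the family in ZK2, with 52.9% of its summed RPKM, and *CAT2* in BYZ1, with 36.3%.

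**Figure D4:**
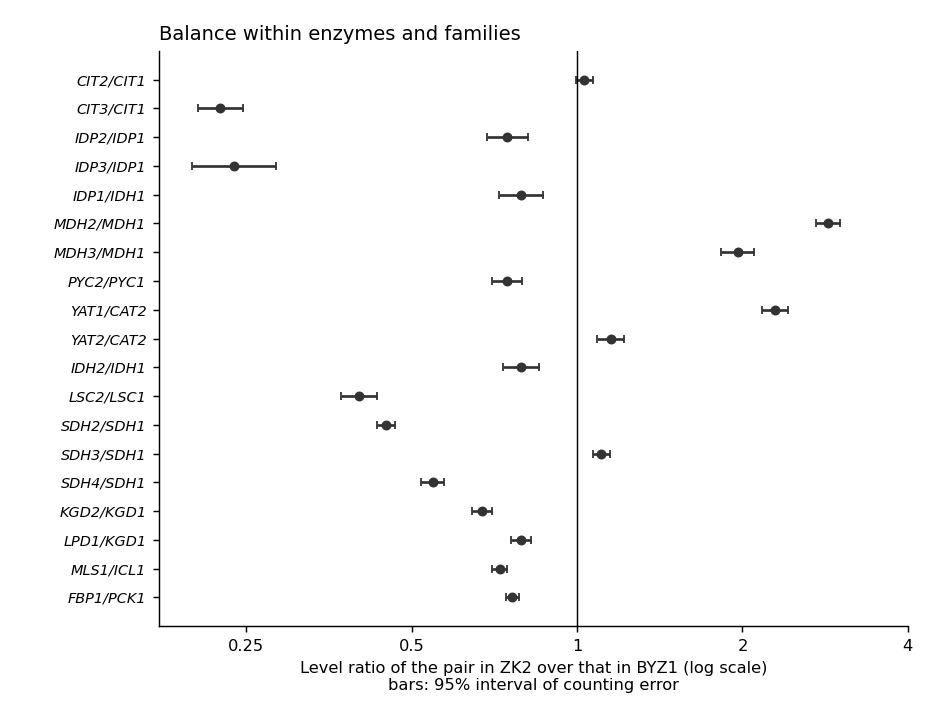
Level ratio of 19 pairs of genes in ZK2 over the same ratio in BYZ1 (log axis), with 95% intervals of counting error. A value of 1 means that the pair kept its balance, as *CIT2*/*CIT1* nearly did (1.03), while *MDH2*/*MDH1* (2.87) and *CIT3*/*CIT1* (0.224) lie far to either side.

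Of the 19 pairs of subunits, isozymes or enzymes of a pathway compared in this way, *CIT2*/*CIT1* was the only one whose interval held 1 (1.03, 0.996 to 1.07). The counting error is small at these depths, so that an interval without 1 does not show that strains differ beyond the variation of cultures.

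Cat8 and Sip4 activate many of these genes through the carbon source response element (CSRE), a site that is silent during growth on glucose. The 600 bases before each coding start in R64 were searched on both strands for a CSRE core, CCNTTNNNCCG. It occurred before 9 of the 35 genes (25.7%) and before 188 of 5999 genes of the genome (3.13%). The element is known as a site of many of these genes, so this excess is not an independent result. The 9 genes were *ACS1*, *ADY2*, *CAT2*, *ICL1*, *MDH2*, *MDH3*, *MLS1*, *PCK1* and *SFC1*. The matches nearest to the start of *PCK1*, *MDH2*, *ICL1*, *MLS1*, *ACS1* and *ADY2* are shown with 7 bases on either side, read along the strand of the gene, because these genes span the highest level and the lowest ratio of the set. The match is in capitals, and it reads as the reverse complement of the core where the element lies on the other strand, as before *PCK1*. Positions of the matches are in R64 and are not to be set against the sacCer2 positions of the genes. A match is a stretch of letters, not a shown site, and the strains' own promoters were not analysed here. Lack of a match does not show that a gene lacks the element.
PCK1 (chr11:630783-630807, plus strand): ggataggCGGATAAAGGGcccaaac
MDH2 (chr15:83280-83304, minus strand): actttgcCCATTCGGCCGtagccgt
ICL1 (chr5:287295-287319, minus strand): caggtttCCATTCATCCGagcgatc
MLS1 (chr14:405851-405875, plus strand): atagcttCCATTGGGCCGatgaagt
ACS1 (chr1:45376-45400, minus strand): gactgctCCATTTCGCCGgatgtcg
ADY2 (chr3:133618-133642, minus strand): ccactgcCCGTTGATCCGgagctcc

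These matches began between 362 and 511 bases before the coding start. Among the 9 genes with a match, the ratio of ZK2 to BYZ1 ran between 0.174 for *ADY2* and 1.38 for *MDH2*, with a median of 0.792, and 3 were called lower. Among the 26 without one it ran between 0.179 and 1.597, with a median of 0.773, and 4 were called lower. These calls are on read totals, where 10.3% of all genes compared were called lower. With TMM factors, *ACS1* (-0.92) and *CAT2* (-0.95), which have a match, were not called, nor was *MDH1* (-0.87), which has none. The counts thus show no difference between the groups that holds on either scale. Genes with a match had a higher median RPKM, 1792 in ZK2 and 1993 in BYZ1, than those without, 768 in ZK2 and 1166 in BYZ1.

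The regulators of these genes and neighboring pathways were measured as well, and the median of each list is to be read against that of all genes, -0.17. Calls in the lists are on read totals, beside 7.91% of all genes called higher and 10.3% called lower, and those that differ with TMM factors are named; this comparison was added after the data were seen. Of 16 regulators, 2 were called higher in ZK2 and 2 lower, with a median log2 ratio of -0.34. *SIP4*, a CSRE-binding activator gene, had 970 reads in ZK2 and 301 in BYZ1 (ratio 3.30, 2.90 to 3.77). Reads covered 86.4% of *SIP4* in ZK2 and 66.2% in BYZ1, so part of the gene was without reads in each library. *SNF4*, the gene of the activating subunit of the Snf1 kinase, had 385 reads in ZK2 and 173 in BYZ1 (2.28, 1.90 to 2.75). *MIG1*, the glucose repressor gene, had 79 in ZK2 and 325 in BYZ1 (0.249, 0.192 to 0.320), and *HAP4*, the activating subunit of the Hap complex that drives respiratory genes, had 1054 in ZK2 and 2363 in BYZ1 (0.457, 0.425 to 0.492). *HAP4* was at a log2 ratio of -0.95 with TMM factors and was then not called. *CAT8* and *ADR1*, named after their values were seen, had ratios of 0.6199 (0.577 to 0.666) and 1.00 (0.945 to 1.06).

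The ubiquitin ligase that destroys gluconeogenic enzymes when glucose returns is encoded by genes of which 8 of 9 passed the filter. *VID24*, the substrate receptor gene for Fbp1 and Pck1, was called higher, with 232 reads in ZK2 and 83 in BYZ1 (2.87, 2.22 to 3.73). Its reads covered 98.99% of the gene in ZK2 and 79.9% in BYZ1. The other named members of this list were within the threshold, *RMD5* at 1.49, *GID7* at 0.774 and *VID30* at 0.668. None was called lower.

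Paralogs and assembly factors of the cycle's enzymes gave 1 higher and 5 lower calls among 14 genes, with a median log2 ratio of -0.46. *ICL2*, whose product is a mitochondrial lyase of methylisocitrate, had 260 reads in ZK2 and 2875 in BYZ1 (0.0927, 0.0814 to 0.105). *SDH9*, a paralog of *SDH1*, had 779 reads in ZK2 and 4251 in BYZ1 (0.188, 0.174 to 0.203). *SHH3* and *SHH4*, paralogs of *SDH3* and *SDH4*, were at 0.263 and 0.252, and *DAL7*, a paralog of *MLS1*, at 0.248; these 3 were named after their values were seen. In the other direction, *ACS2*, the acetyl-CoA synthetase gene of growth on glucose, had 6313 reads in ZK2 and 1934 in BYZ1 (3.35, 3.18 to 3.52), and the assembly factor gene *SDH6* was at 2.00 (1.61 to 2.50), just short of a call on read totals and called with TMM factors. *ACS2* had an RPKM of 673 in ZK2 and 201 in BYZ1, so that the level ratio of *ACS1* to *ACS2* differed between strains through both genes.

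Pyruvate dehydrogenase and the pyruvate carrier, which supply acetyl-CoA from sugar, had no calls among 12 genes on read totals, with a median log2 ratio of -0.01, and 1 higher call with TMM factors, *PDB1*, at 1.01. The ratio was 1.78 for *PDB1*, the beta subunit of the decarboxylase, 1.74 for the malic enzyme gene *MAE1*, 0.623 for *PDX1* and 0.586 for the carrier gene *MPC1*. Of 8 genes of mitochondrial carriers of acids and carnitine, 7 passed the filter and their median was 0.01. *DIC1*, the dicarboxylate carrier gene, was the only call, at 0.283 (0.238 to 0.335), and *ODC1* (0.546), *ODC2* (1.16) and the carnitine carrier gene *CRC1* (1.31) were within the threshold.

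Neighboring pathways of ethanol and fat use are set beside these values. Of 15 other genes under glucose repression, 7 were called lower and 1 higher, with a median log2 ratio of -0.88, and with TMM factors 6 were called lower and 1 higher, without *CTA1* (-0.91), named after its value was seen. *FDH1* (0.101) and *SPG1* (0.159) were the lowest of these, and *GUT1* (1.59) and the invertase gene *SUC2* (4.38) the highest. *ADH2*, named after its value was seen, was at 2807 in ZK2 and 15126 in BYZ1. Reads covered 90.9% of *ADH2* in ZK2 and 91.0% in BYZ1, and sequence it shares with other genes was not examined, so its value is uncertain. Of 11 genes of peroxisomal fatty acid oxidation, 6 were called lower and none higher, with a median log2 ratio of -1.005. With TMM factors 4 were called lower, and the median was -0.83, since *ECI1* and *PXA2*, named after their values were seen, were no longer called. *SPS19* and *PXA1* had ratios of 0.358 and 0.376, and *TES1* and *POX1* had 0.759 and 0.771. Their part in the values of the 35 genes was not tested.

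Nuclear genes of respiratory complexes III to V had 2 higher and 0 lower calls among 29, on either scale, with a median log2 ratio of 0.09 on read totals and 0.26 with TMM factors. Their extremes were *COX7* (2.39) and *ATP20* (2.29) above and *QCR7* (0.543) and *ATP3* (0.661) below. The 10 genes of lower glycolysis had 1 call in each direction and a median of -0.22, with *TDH2* (2.36) and *TDH1* (1.47) highest and *GPM1* (0.475) and *CDC19* (0.523) lowest. The lower call, *GPM1*, was at a log2 ratio of -0.90 with TMM factors and was then not called. *TDH2* shares most of its sequence with *TDH3*, which makes its value uncertain.

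**Figure D5:**
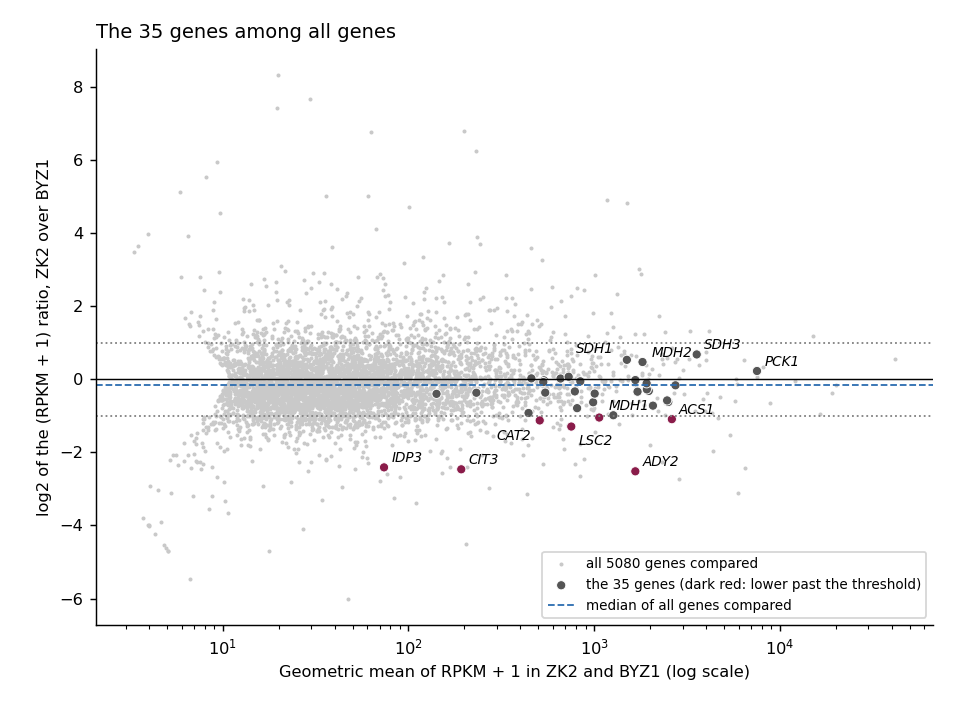
log2 of the (RPKM + 1) ratio, ZK2 over BYZ1, against the geometric mean of RPKM + 1 in both strains (log axis) for the 5080 genes compared (grey), with the 35 genes as large points. The 7 genes called lower are dark red and named, together with *SDH1*, *SDH3*, *MDH2* and *PCK1*, and the set lies at the right of the cloud, among the abundant transcripts.

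By compartment, the 16 genes whose products are purely mitochondrial had ratios between 0.179 and 1.597 with a median of 0.773, and 3 were called lower. The 8 cytosolic genes had ratios between 0.525 and 1.38 with a median of 0.906, and none was called. These calls are on read totals, where 10.3% of all genes compared were called lower. With TMM factors, mitochondrial *MDH1* was at a log2 ratio of -0.87 and was not called. The summed RPKM of the mitochondrial genes was 18672 in ZK2 and 22253 in BYZ1, and that of the cytosolic genes 16412 in ZK2 and 15908 in BYZ1. *PCK1* decided the direction of the cytosolic sum, which without it was 8281 in ZK2 and 8936 in BYZ1.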

How the data were processed

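RNA of ZK2 and BYZ1 was sequenced on an Illumina instrument, 1 library each. The study describes poly(A) enrichment for BYZ1 and does not name ZK2. For BYZ1 the authors removed low-quality reads, aligned the rest to S288c genes with SOAPAligner and counted uniquely mapped reads per gene. The tools used for ZK2, and the SOAPAligner version, are not given in the sources used here. Loss of ZK2 reads that differ from the reference would lower its levels gene by gene, and this was not tested. The deposited tables hold these read counts, RPKM scaled by each library's unique gene reads, and the percent of each gene covered. Genes without a read are not listed. RPKM recomputed from the counts matched. Tables were joined on gene ID, and 5693 of 5699 IDs matched the R64 gene table. Listed lengths equalled R64 coding lengths for all 35 members, and no member overlaps another annotated gene. The submitters' processing notes name sacCer2, the build of gene coordinates. Sequences and their positions are RefSeq R64, in which some genes, such as *MDH1* and *PCK1*, lie at other positions than in sacCer2.

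Ratios carry exact conditional binomial intervals, levels exact Poisson intervals, and ratios of ratios Wald intervals. TMM factors are from edgeR 4.0.16, the rest from Python 3.11.15 with scipy 1.17.1. Steps were tested on simulated data. Alternatives were 3 other scales, 2 pseudocounts, 2 filters and a shorter upstream window. Members, lists, pairs and the rule for names were chosen with earlier results of these data known. The text names every member, the 2 highest and 2 lowest log2 ratios of each of 9 lists, and any other gene as named after its value was seen. Protein sequences were not used here.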

Additional observations from a re-analysis of the deposited data

How the results depend on the processing

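With TMM factors, 4 members were called lower in ZK2, and with the median of gene ratios also 4, against 7 on read totals. The corresponding counts over all genes were 339 and 341, against 524, and 274 with a filter at an RPKM of 50. The median log2 ratio of the members was -0.19 on both of these scales, against -0.37. Among the members, the scale decides the calls of *MDH1*, *ACS1* and *CAT2*. Without the 10 highest genes of either library in the totals, the median RPKM of the members was 919 in ZK2 and 1435 in BYZ1. No member was called higher under any of the 7 alternatives. Of 175 member ratios under 5 alternatives, 107 stayed within their counting interval and 68 left it, and no called ratio changed sign. In windows of 250 bases the CSRE core occurred before 0 members (0.983% of all genes), GTCAC before 7 (20% of members, 21.8% of all genes) and CCAAT before 20 (57.1% of members, 35.4% of all genes), so members exceeded all genes in their share of CSRE and GTCAC only in the longer window. No paired analysis was possible because each strain has 1 library. Depth was no limit for most members, the fewest reads being 179, but with 1 library per strain the variation between cultures is unknown.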

Other observations

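Another pair of letter strings was searched in the 600 bases before each coding start, on both strands. GTCAC, the site of the retrograde factors Rtg1 and Rtg3, occurred before 22 of the 35 genes (62.9%) and before 49.2% of all genes. *CIT2*, *IDH1* and *IDP2* had 3 matches each. CCAAT, the site of the Hap complex, occurred before 33 of the 35 genes (94.3%) and before 70.3% of all genes, and *LSC1* and *LSC2* were the members without it. The ratio of ZK2 to BYZ1 had a median of 0.766 over the members with GTCAC and 0.788 over those without. Members without CCAAT had ratios of 1.01 (*LSC1*) and 0.406 (*LSC2*).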
